A study of Homo sapiens with 4 samples.

Results

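The epidermal differentiation complex is a cluster of genes on chromosome 1 that encode the building blocks of the cornified envelope, the cross-linked protein shell that replaces the plasma membrane of a dying keratinocyte. In this study its mRNA was measured in 2 human cell lines from anaplastic thyroid cancer (ATC), SW1736 and 8505C, which are not epidermal cells. Of the 41 envelope genes of the complex found by name in the deposited tables, out of 26485 gene names, 8 are the members described in depth, namely FLG, HRNR, LCE2A, KPRP, IVL, SPRR1A, SPRR1B and SPRR2D. They were chosen by name and position and by measured values, since several were present in 8505C wt and absent from SW1736 wt in these same libraries, so the difference between the wt libraries is given as a description. There were 4 libraries, 1 per group. SW1736 wt and 8505C wt were the paclitaxel-sensitive parental cells, cultured without the drug. SW1736-PTX and 8505C-PTX are described as derived from them by 6 months of exposure to paclitaxel, a microtubule-stabilizing taxane, at doses raised from 1 nM to 1.5 µM, and stayed in medium with 1.5 µM paclitaxel. Selection and the presence of the drug cannot be told apart in this design.

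Filaggrin (FLG) and hornerin (HRNR) belong to the S100-fused type proteins, which bundle keratins and are broken down in the outermost layers. Involucrin (IVL), the small proline-rich proteins (SPRR) and the late cornified envelope proteins (LCE) are precursors that transglutaminases join into the envelope, and KPRP is a keratinocyte proline-rich protein of the upper epidermis. In skin these genes are switched on in order as a keratinocyte leaves the basal layer, with AP-1 and Krüppel-like factors among their known regulators. A thyroid follicular cell has no cornified envelope.

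The members lie between positions 152212076 and 153041118 of chromosome 1 (hg38), within the 1178 kb held by the 41 envelope genes. RefSeq promoters (GRCh38.p14, 250 bases before to 50 bases after the start site) were found for 7 of the 8 members, and 4 are printed because these genes showed the contrasts described in the text. LCE2A and KPRP were lower in 8505C-PTX than in 8505C wt, IVL was higher, and FLG had a ratio near 1. Capitals mark TATAAA, read on both strands, and the AP-1 letters TGANTCA, which read the same on both strands. In the KPRP promoter a match on each strand overlaps, so that the capitals form 1 longer run.

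LCE2A, chr1:152698095-152698394, plus strand: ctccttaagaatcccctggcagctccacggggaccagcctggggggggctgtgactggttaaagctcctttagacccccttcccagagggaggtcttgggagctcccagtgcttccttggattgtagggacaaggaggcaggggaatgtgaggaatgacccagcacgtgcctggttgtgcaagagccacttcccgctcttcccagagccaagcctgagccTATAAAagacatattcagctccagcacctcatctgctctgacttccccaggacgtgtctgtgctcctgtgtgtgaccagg
KPRP, chr1:152757775-152758074, plus strand: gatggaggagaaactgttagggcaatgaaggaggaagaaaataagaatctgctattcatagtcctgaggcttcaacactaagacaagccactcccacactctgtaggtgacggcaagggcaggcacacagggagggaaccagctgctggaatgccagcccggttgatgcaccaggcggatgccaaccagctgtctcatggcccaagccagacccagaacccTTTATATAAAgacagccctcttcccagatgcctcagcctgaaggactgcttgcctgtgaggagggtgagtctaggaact
IVL, chr1:152908296-152908595, plus strand: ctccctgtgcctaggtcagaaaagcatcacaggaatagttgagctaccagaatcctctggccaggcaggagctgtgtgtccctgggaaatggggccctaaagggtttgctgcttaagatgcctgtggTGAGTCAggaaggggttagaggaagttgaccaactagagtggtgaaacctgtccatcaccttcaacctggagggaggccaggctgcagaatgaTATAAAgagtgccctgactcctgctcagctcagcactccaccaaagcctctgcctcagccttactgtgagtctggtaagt
FLG, chr1:152325190-152325489, minus strand: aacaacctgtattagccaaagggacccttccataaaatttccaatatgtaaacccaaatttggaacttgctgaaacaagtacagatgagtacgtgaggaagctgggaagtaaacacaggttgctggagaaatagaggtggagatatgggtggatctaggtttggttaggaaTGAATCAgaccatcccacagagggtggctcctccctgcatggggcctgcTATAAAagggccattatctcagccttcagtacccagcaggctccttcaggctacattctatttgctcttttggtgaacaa

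Each of these 4 promoters held TATAAA on the gene's strand, with its first base 30 bases before the start site in LCE2A, IVL and FLG and 25 bases before it in KPRP. Over the members, 6 of the 7 promoters had it between 35 and 25 bases before the start site, against 20 of 36 envelope genes of the complex (55.6%) and 2.17% of all 35116 promoters. TGANTCA was present in the promoters of FLG, IVL, SPRR1A and SPRR1B and was not found in those of LCE2A, KPRP and HRNR. It stood in 41.7% of the promoters of the complex and in 7.71% of all promoters. The GC box letters GGGCGG occurred in 1 of the 36 promoters of the complex (2.78%) and in 45.0% of all promoters, while the ETS letters GGAA, at 97.2% and 95.5%, did not separate them. These matches are descriptions of the letters and say nothing of binding.

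The libraries held between 43.5 and 57.9 M reads, and the level of a gene is given as FPKM, the authors' value per gene length and aligned fragments. With 1 library per group there was no spread between replicates, no p-value was computed, and intervals cover counting error only. Lower RNA per cell and fewer cells with that RNA cannot be told apart in such bulk samples. Before the members are compared, the thyroid markers of the library labelled SW1736-PTX must be given, because they lay near those of 8505C and not near those of SW1736 wt. PAX8, a thyroid transcription factor, reached 38.2 FPKM in SW1736 wt but only 0.206 in SW1736-PTX, 0.123 in 8505C wt and 0.146 in 8505C-PTX. FOXE1, another, had 26.6, 0.512, 0.0443 and 0.178 FPKM in these libraries, and NKX2-1 was listed at 0 in SW1736 wt and stood between 30.5 and 39.0 FPKM in the other 3 libraries. TG, TSHR and SLC5A5 were at most at 0.00586 FPKM. By the limits given below, FOXE1 was called higher in SW1736-PTX than in 8505C wt, passing the FPKM limit through SW1736-PTX alone. Not every gene had the pattern of these markers. KRT14, given below, was at 0.1703 FPKM in SW1736-PTX, nearer to SW1736 wt (0) than to 8505C wt (16.65). The paper reports a short tandem repeat check of both cell lines, without naming the PTX cells. Whether the thyroid marker pattern came with the selection or from an exchange or mixture of cultures or libraries was not tested. These values cannot tell them apart, so each difference between SW1736-PTX and SW1736 wt may be one between lines. SW1736-PTX was therefore also compared with 8505C wt, a choice made after the values were seen, and calls that depend on this reference are named.

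The defining keratinocyte markers were mostly missing. Of 9 such genes, KRT5, KRT1, KRT2, DSG3 and DSG1 were listed at 0 in all 4 libraries, and TP63, the master factor of stratified epithelia, was at most at 0.0455 FPKM. KRT14, a basal keratin, was missing from SW1736 wt, was low in SW1736-PTX (0.1703 FPKM) and reached 16.6 FPKM in 8505C wt and 12.2 in 8505C-PTX. KRT10 was between 16.1 and 25.1 FPKM, and COL17A1 between 0.0662 and 1.41. The summed level of the 9 genes was 16.8 FPKM for SW1736 wt, 25.6 in SW1736-PTX, 40.5 in 8505C wt and 33.9 in 8505C-PTX. The part of keratinocyte-like cells in the values of the complex was not tested.

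Of the 41 envelope genes, 23 were listed at 0 in all 4 libraries, among them loricrin (LOR), SPRR1B, SPRR3, CRNN and 11 of the 18 LCE genes. Only FLG, LCE2A, LCE6A, SPRR2A, SPRR2D, IVL and KPRP exceeded 0.5 FPKM in at least 1 library, and the other 11 genes were detected below that. In SW1736 wt, 36 of the 41 genes were at 0 and none was above 0.5 FPKM, while each of the other 3 libraries had 5 above it. The summed level of the complex was 0.250 FPKM for SW1736 wt, 87.1 in SW1736-PTX, 97.2 in 8505C wt and 20.0 in 8505C-PTX. LCE2A and KPRP alone made up 90.6% of that sum in SW1736-PTX, 89.1% in 8505C wt and 55.1% in 8505C-PTX. The signal was thus carried by a few scattered genes, with silent genes between them, as the map along the chromosome shows. The 0.5 FPKM limit separated LCE6A (1.81) from FLG (0.479) in SW1736-PTX, SPRR2A (0.789) from IVL (0.157) in 8505C wt, and SPRR2D (0.591) from SPRR1A (0.165) in 8505C-PTX.

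**Figure D1:**
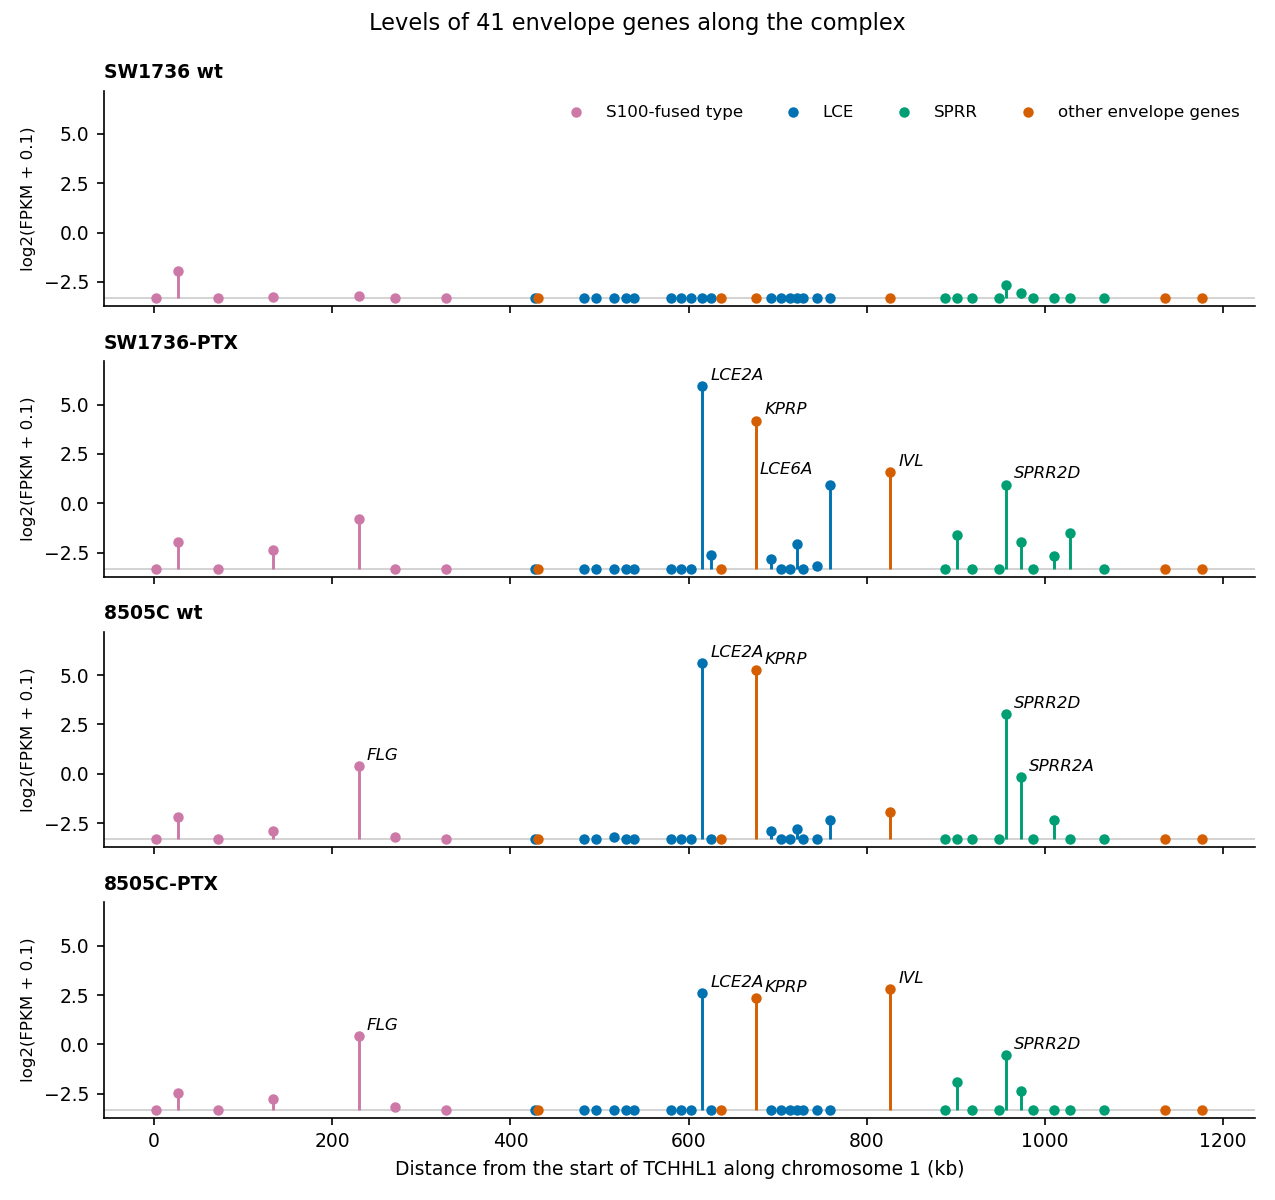
Levels of the 41 envelope genes as log2(FPKM + 0.1) on the vertical axis against the distance in kb from the start of TCHHL1 along chromosome 1, with 1 panel per library and colours for the gene families; a gene on the grey line is listed at 0, and genes above 0.5 FPKM are named. No gene reaches 0.5 FPKM in SW1736 wt, and LCE2A and KPRP stand above their neighbours in the other 3 panels.

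LCE2A, a late cornified envelope gene of 2 exons (152698364 to 152699442, plus strand), had the highest level of any member in SW1736-PTX and 8505C wt, and was second to IVL in 8505C-PTX. Its value was 0 for SW1736 wt, and its level came to 60.8 FPKM in SW1736-PTX, 48.2 in 8505C wt and 6.01 in 8505C-PTX. On its transcript of 611 bases this came to about 2151, 1283 and 197 reads in the last 3 libraries, so its level was well above the floor of 3 reads, 0.1003 FPKM in SW1736 wt. SW1736-PTX and 8505C wt were high, 8505C-PTX was intermediate and SW1736 wt had none. In SW1736-PTX and 8505C wt, LCE2A exceeded 91.4% and 86.7% of the genes above 0.5 FPKM, and in 8505C-PTX 39.7%.

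Of the 18 LCE genes, LCE2A and LCE6A exceeded 0.5 FPKM in at least 1 library, and the genes most similar to LCE2A were silent. LCE2B, LCE2C and LCE2D, of which LCE2B is the nearest to LCE2A, were listed at 0 in all 4 libraries. Their transcripts were 86.7% to 87.8% identical to that of LCE2A over the aligned bases, and none of the 537 stretches of 75 bases in LCE2A, the length of a read, was found unchanged in any of them. Of the other 16 LCE genes besides LCE2A and LCE6A, the highest value in any library was 0.142 FPKM, for LCE1C in SW1736-PTX.

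KPRP (152758030 to 152762053, plus strand) starts 58.6 kb after LCE2A and was listed at 0 in SW1736 wt. It was at 18.1 FPKM in SW1736-PTX, 38.4 in 8505C wt and 5.03 in 8505C-PTX, about 2653, 4237 and 682 reads. As for LCE2A, 8505C-PTX was the lowest of the 3 libraries that expressed it, but the order of the other two was turned, with 8505C wt 2.12-fold above SW1736-PTX (counting interval 2.02 to 2.23). The ratio of LCE2A to KPRP was 3.36 in SW1736-PTX, 1.25 in 8505C wt and 1.19 in 8505C-PTX. The 2 genes between them, LCE4A and C1orf68, did not exceed 0.0594 FPKM, and the 6 LCE1 genes after KPRP did not exceed 0.142 FPKM.

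SPRR2D (153039725 to 153041118, minus strand), a small proline-rich precursor, had a level of 0.0599 FPKM for SW1736 wt, 1.83 in SW1736-PTX, 7.98 in 8505C wt and 0.591 in 8505C-PTX. These levels stand for about 2, 72, 235 and 21 reads. It was highest in 8505C wt and near the floor in SW1736 wt. SPRR2A, next to it, followed at lower levels with 0.0201, 0.155, 0.789 and 0.0919 FPKM. The SPRR2 genes are near copies: SPRR2D was 94.5% identical to SPRR2A, 74 of its 603 stretches of 75 bases (12.3%) occur unchanged in SPRR2A, and 12.9% in SPRR2B, so reads of these genes may have been divided between them and their values are uncertain.

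IVL (152908563 to 152911886, plus strand) encodes involucrin, an early glutamine-rich scaffold of the envelope, and had a different pattern. No IVL signal was listed for SW1736 wt, and the level was 2.89 FPKM in SW1736-PTX, 0.157 in 8505C wt and 6.79 in 8505C-PTX, about 360, 15 and 783 reads. Both PTX libraries were above both wt libraries, and the highest level was that of 8505C-PTX, where LCE2A, KPRP and SPRR2D were lower than in 8505C wt. IVL lies 146.5 kb from KPRP and 127.8 kb from SPRR2D.

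FLG (152302175 to 152325203, minus strand) had 0.00849 FPKM for SW1736 wt, 0.479 in SW1736-PTX, 1.20 in 8505C wt and 1.23 in 8505C-PTX. On its long transcript of 12793 bases these low levels still amounted to about 5, 355, 670 and 842 reads. FLG differed little between the 8505C libraries and was lowest in SW1736 wt. FLG-AS1, a long non-coding gene on the other strand, had 0, 0.601, 1.01 and 1.31 FPKM in these libraries. Its span, introns included, overlaps 11.7 kb of that of FLG, and the overlap of exons was not computed. Reads from sequence shared by the 2 genes cannot be told apart if strand was not used in counting, which the sources do not state.

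The remaining members were near the limit of detection. HRNR, which neighbours FLG and like it holds internal repeats, had 0.00566 FPKM for SW1736 wt, 0.0961 in SW1736-PTX, 0.0337 in 8505C wt and 0.0481 in 8505C-PTX, about 3, 54, 14 and 25 reads. SPRR1A was detected only in the PTX libraries, at 0.223 FPKM in SW1736-PTX and 0.165 in 8505C-PTX, from about 8 and 6 reads, and was listed at 0 in both wt libraries, where 3 reads would have given 0.0946 and 0.106 FPKM. SPRR1B was listed at 0 in all 4 libraries, which allows up to 0.111 FPKM at the shallowest depth.

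**Figure D2:**
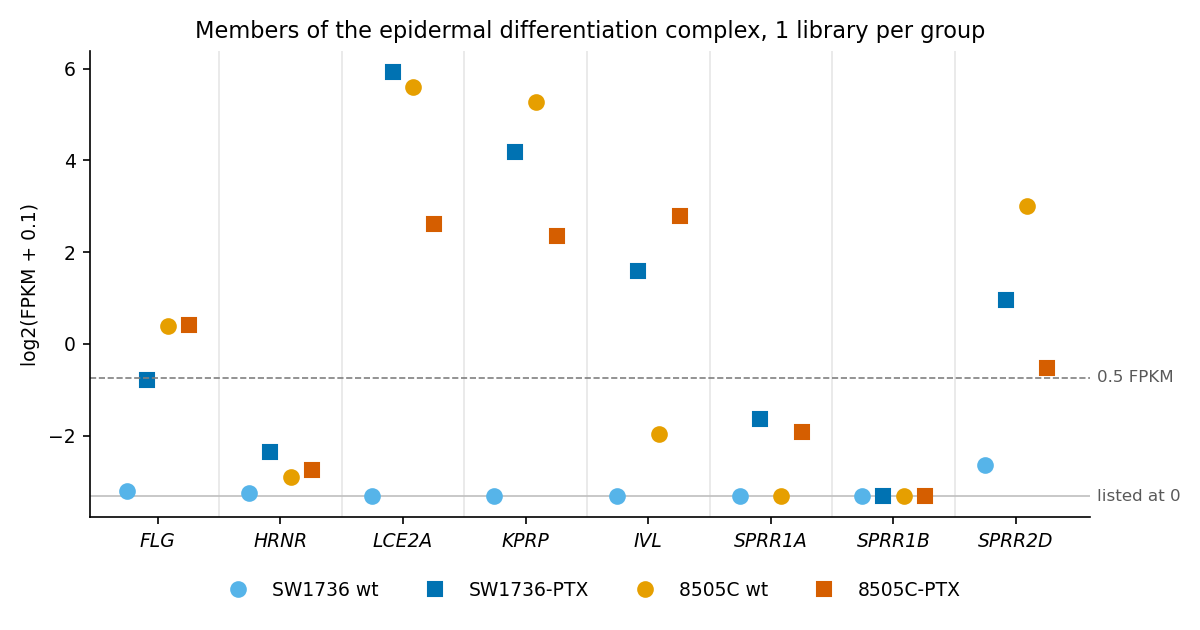
Levels of the 8 members as log2(FPKM + 0.1) in each of the 4 libraries (circles wt, squares PTX; 1 library per group, no error bars); the dashed line marks 0.5 FPKM and the grey line genes listed at 0. LCE2A, KPRP and SPRR2D lie lower in 8505C-PTX than in 8505C wt, whereas IVL lies higher.

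To assess what accompanied paclitaxel selection, each PTX library was compared with its parental library. A gene was compared when either of the paired libraries exceeded 0.5 FPKM, and called when log2((PTX + 0.1)/(wt + 0.1)) was beyond 1.5 in either direction, both limits being those of the study. Ratios of FPKM without the added 0.1 are given as folds. These comparisons share their wt libraries with the contrast that chose the members.

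In the library labelled SW1736-PTX, LCE2A, KPRP, IVL, SPRR2D and LCE6A were higher than in SW1736 wt, and no envelope gene was lower. Of the 41 genes, 5 could be compared and all 5 were called higher, against 15.7% of 14202 genes; lower calls made up 10.2% of all genes. Each of the 5 passed the FPKM limit through SW1736-PTX alone, so a difference was required of them, and nothing was read from the share. LCE2A was at least 606-fold higher, KPRP at least 747-fold and IVL at least 101-fold, relative to the FPKM of 3 reads in SW1736 wt, where they were listed at 0. LCE6A, at 1.81 FPKM, was at least 18.9-fold higher. SPRR2D was 30.5-fold higher, with a counting interval from 8.12 to 256 because about 2 reads stood behind its wt level. The log2 fold changes were 9.25 for LCE2A, 7.51 for KPRP, 4.90 for IVL, 4.25 for LCE6A and 3.59 for SPRR2D, with a median of 4.90 beside 0.01 for all genes compared. FLG did not reach 0.5 FPKM in either library, although its ratio was 56.5 (25.5 to 186).

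Measured against 8505C wt, the same library gave other results. LCE2A in SW1736-PTX then differed by a log2 fold change of 0.33 and KPRP by -1.08, and neither was called. SPRR2D was 4.37-fold lower (3.32 to 5.73) and SPRR2A 5.09-fold lower (2.02 to 15.3), while IVL was 18.4-fold higher (10.8 to 32.6) and LCE6A 19.0-fold higher (5.51 to 83.5). These 2 higher and 2 lower calls came from 7 genes compared, with 15.1% of 13824 genes called higher and 5.23% lower. IVL and LCE6A passed the FPKM limit through SW1736-PTX alone and SPRR2A through 8505C wt alone. The direction of those calls was thus fixed, and nothing was read from the shares. SPRR2D exceeded the limit in both libraries. The increase of IVL was the one called against either wt library among the members, though IVL passed the limit through SW1736-PTX alone each time. The increases of LCE2A and KPRP depended on SW1736 wt as the reference, and that of SPRR2D turned into a decrease.

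In 8505C-PTX, 3 members fell and 1 rose. LCE2A fell 8.03-fold relative to 8505C wt (counting interval 6.89 to 9.36) and KPRP 7.65-fold (7.05 to 8.30), log2 fold changes of -2.98 and -2.91. SPRR2D fell 13.5-fold (8.80 to 22.7) and SPRR2A 8.59-fold (2.85 to 49.1). IVL rose 43.2-fold (25.6 to 76.2), a log2 fold change of 4.74. FLG was not called, with a ratio of 1.02 (0.922 to 1.13). Of 6 envelope genes compared, 1 was called higher, beside 15.0% of 13794 genes, and 4 were called lower, beside 5.89%. SPRR2A passed the FPKM limit through 8505C wt alone and IVL through 8505C-PTX alone, while LCE2A, KPRP, SPRR2D and FLG exceeded it in both libraries. The median log2 fold change was -2.56 beside 0.11 for all genes compared, and since the 8505C wt level took part in choosing the members, the lower values in 8505C-PTX are descriptions.

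**Figure D3:**
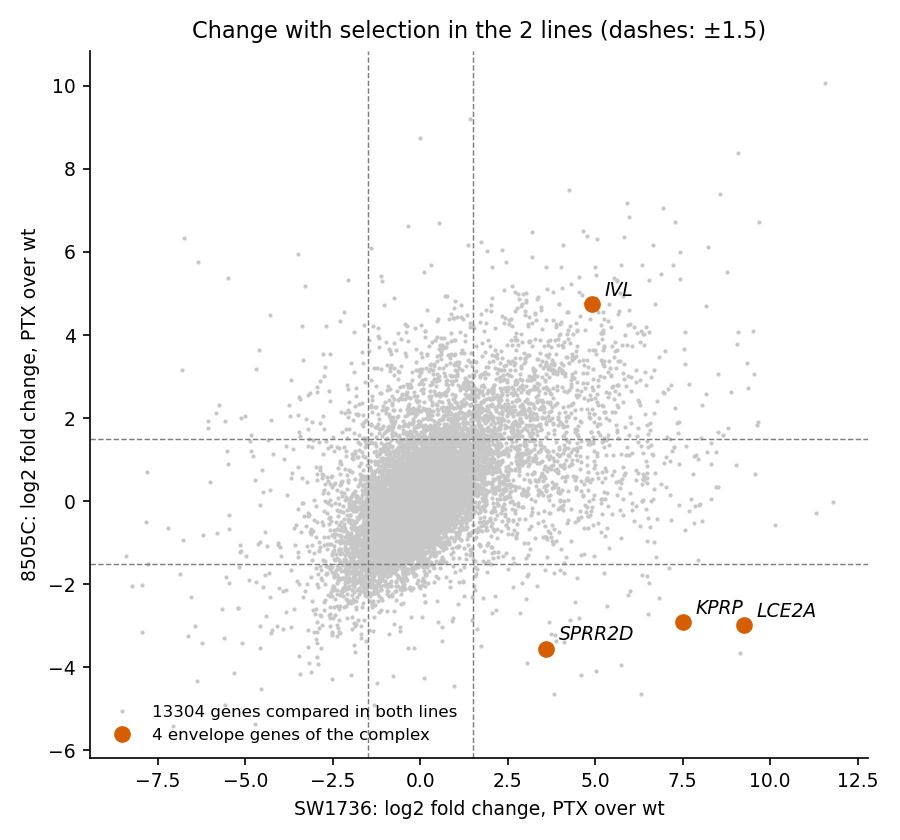
Log2 fold change of PTX over wt in SW1736 (horizontal axis) and in 8505C (vertical axis) for 13304 genes compared in both lines (grey) and the 4 envelope genes among them (orange), with dashes at 1.5 in either direction. IVL lies at 4.90 and 4.74, while LCE2A, KPRP and SPRR2D lie to the lower right, high in SW1736-PTX over its wt and low in 8505C-PTX over its wt.

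The 2 resistant lines were then compared with each other, a contrast that shares no wt library with the choice of the members. LCE2A was 10.1-fold lower in 8505C-PTX than in SW1736-PTX (8.73 to 11.8) and KPRP 3.60-fold lower (3.31 to 3.92), log2 fold changes of -3.32 and -1.83. LCE6A was listed at 0 in 8505C-PTX, at least 20.7-fold below its 1.81 FPKM in SW1736-PTX. SPRR2D was 3.09-fold lower (1.93 to 5.43), and its log2 fold change of -1.48 just missed the limit. IVL was 2.35-fold higher in 8505C-PTX (2.07 to 2.67) and FLG 2.56-fold higher (2.26 to 2.91), and neither was called. Of the 6 envelope genes compared, 3 were called lower, beside 4.09% of 13986 genes, and none higher, beside 3.70%. LCE6A passed the FPKM limit through SW1736-PTX alone and FLG through 8505C-PTX alone. The direction open to each was thus fixed, and nothing was read from the shares. LCE2A, KPRP, SPRR2D and IVL exceeded the limit in both libraries. Among the members, the order of levels in SW1736-PTX was LCE2A, KPRP, IVL, SPRR2D, FLG, whereas in 8505C-PTX it was IVL, LCE2A, KPRP, FLG, SPRR2D.

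Between the parental lines, the contrast used to choose the members, FLG, LCE2A, KPRP, SPRR2D and SPRR2A were higher in 8505C wt. Of the 41 genes, 5 could be compared and all 5 were called higher, beside 7.73% of 13457 genes, and none lower, beside 9.92%. Each of the 5 passed the FPKM limit through 8505C wt alone, so no lower call was possible, and nothing was read from the share. LCE2A was at least 481-fold and KPRP at least 1590-fold above the level of 3 reads in SW1736 wt. The estimated reads on all 41 genes together were 64 in SW1736 wt and 6523 in 8505C wt.

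The genes whose pattern over the 4 libraries was most like that of LCE2A were sought among 14691 others by the Euclidean distance between log2(FPKM + 0.1) profiles, each centred on its mean. KPRP was the 3rd nearest, at a distance of 1.36. BEX1, a small adaptor protein, was the nearest at 0.64, with 0, 56.5, 43.9 and 3.37 FPKM in SW1736 wt, SW1736-PTX, 8505C wt and 8505C-PTX. KISS1, which encodes the kisspeptin precursor, came next at 1.27, with 0.340, 227, 366 and 68.8 FPKM. FLT1, a receptor of vascular endothelial growth factor, followed KPRP at 1.78 with 0, 11.2, 15.6 and 3.00 FPKM, and MAGEA1, a cancer-testis antigen, at 1.80 with 0, 13.8, 14.5 and 4.67. SPRR2D ranked 178, FLG 538 and IVL 1607. A profile of 4 libraries is a weak measure of likeness.

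The partners of the complex in cornification were then examined from lists of genes encoded elsewhere. The enzymes that act on these precursors in skin are described first. Transglutaminase 1 (TGM1), which cross-links the envelope of keratinocytes, was between 0.204 and 0.550 FPKM, and TGM3 was listed at 0. TGM2, the widely expressed tissue transglutaminase, stood at 404 FPKM for SW1736 wt, 419 in SW1736-PTX, 78.6 in 8505C wt and 716 in 8505C-PTX, and was called higher in 8505C-PTX with a log2 fold change of 3.19. SW1736-PTX differed from SW1736 wt by 0.05 in TGM2, which was not called, and from 8505C wt by 2.41, which was. Of 22 proteases and inhibitors of filaggrin processing and desquamation, 5 were compared in SW1736 and 4 in 8505C. CTSV and SPINT1 were called lower in SW1736-PTX than in SW1736 wt and none higher, beside 10.2% and 15.7% of all genes. None was called in 8505C, beside 5.89% lower and 15.0% higher. Against 8505C wt neither CTSV nor SPINT1 was lower in SW1736-PTX (log2 fold changes 0.88 and 0.77). Of 14 genes of the cornified lipid layer, 6 were compared in SW1736 and 7 in 8505C. ELOVL4 was called higher in SW1736-PTX than in SW1736 wt and none lower, beside 15.7% and 10.2% of all genes. Against 8505C wt ELOVL4 was not called higher (-1.25). In 8505C-PTX ALOX12B was called higher and SLC27A4 lower, beside 15.0% and 5.89%. In the calls made, ELOVL4 and ALOX12B passed the FPKM limit through the PTX library alone and SPINT1 through SW1736 wt alone, so their direction was fixed.

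Envelope precursors encoded outside the complex moved in both directions. Of 17 such genes, 9 were compared in SW1736, with 5 higher and 2 lower, beside 15.7% and 10.2% of all genes. In 8505C 10 were compared, with 4 higher and 1 lower, beside 15.0% and 5.89%. SW1736-PTX against 8505C wt gave 3 higher and 2 lower of 9, beside 15.1% and 5.23%, and the calls of PI3, ANXA1 and PPL were not made there. JUP, the desmosomal plakoglobin, increased in both lines, from 9.56 to 224 FPKM for the SW1736 libraries and from 27.8 to 288 for those of 8505C. CNFN, cornifelin, went from 1.15 to 4.03 FPKM with SW1736 and from 0.444 to 12.3 with 8505C, and CSTA, the protease inhibitor cystatin A, from 0 to 1.56 and from 0.314 to 1.39. Both, like JUP, were called higher in both lines and also in SW1736-PTX against 8505C wt. CSTA passed the FPKM limit through the PTX library alone each time, as did CNFN against 8505C wt. Only a higher call was possible there. JUP exceeded the limit in each library. Envoplakin (EVPL), a plakin that lines the envelope, fell from 1.09 to 0.0105 FPKM and from 1.88 to 0.0109, and periplakin (PPL) from 2.96 to 0.0770 in SW1736, while in 8505C PPL was at 0.0678 and 0.0272 FPKM, below the limit. EVPL in both lines and PPL in SW1736 passed the limit through the wt library alone, so only a lower call was possible. Desmoplakin (DSP), another plakin, was not called in either line, with 9.15 and 13.2 FPKM in SW1736 and 16.2 and 27.3 in 8505C.

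Among 28 transcription factors and receptors of keratinocyte differentiation, 6 were called higher and 1 lower of 14 compared in SW1736, beside 15.7% and 10.2% of all genes. In 8505C 5 were called higher and none lower of 15, beside 15.0% and 5.89%. SW1736-PTX against 8505C wt had 4 higher and none lower of 14, beside 15.1% and 5.23%, namely KLF4, CEBPA, GATA3 and NOTCH3. KLF4, a Krüppel-like factor of the skin barrier, had 2.36 FPKM for SW1736 wt, 13.4 in SW1736-PTX, 3.84 in 8505C wt and 5.67 in 8505C-PTX. KLF5 had 6.787, 25.11, 35.31 and 33.91 FPKM in these libraries, and its higher call in SW1736-PTX was not made against 8505C wt. CEBPB had levels of 3.67, 59.0, 22.5 and 53.9 FPKM in these libraries, and NOTCH3, a receptor that promotes differentiation, had 0.00338, 2.73, 0.103 and 16.7. NOTCH3, RORA and CEBPA were called higher in both lines, with log2 fold changes of 4.77 and 6.37 for NOTCH3 and of 3.71 and 1.95 for RORA. NOTCH3 and RORA passed the FPKM limit through the PTX library alone each time, so only a higher call was possible. CEBPA exceeded the limit in all 4 libraries, with 1.115 FPKM for SW1736 wt, 3.784 in SW1736-PTX, 0.9703 in 8505C wt and 3.589 in 8505C-PTX. The RORA and CEBPB calls in SW1736-PTX were not made against 8505C wt (1.36 and 1.38). GATA3 was called lower in SW1736 and higher in 8505C, with log2 fold changes of -2.29 and 4.33, but against 8505C wt it was called higher in SW1736-PTX as well (3.61). GATA3 was below the FPKM limit in 8505C wt, so only higher calls were possible against that library. GRHL3, OVOL1 and ZNF750, which act late in the epidermis, were listed at 0 in all 4 libraries. Other factors of the list were detected but did not reach 0.5 FPKM in any library, and so were not compared. PRDM1 had 0.0158, 0.480, 0.0164 and 0.377 FPKM in SW1736 wt, SW1736-PTX, 8505C wt and 8505C-PTX. MAF had 0, 0.173, 0 and 0.02685 FPKM in the same order, whereas OVOL2 was detected only in SW1736 wt, at 0.0863 FPKM.

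The AP-1 subunit FOSL1 had 423 FPKM for SW1736 wt, 54.0 in SW1736-PTX, 229 in 8505C wt and 30.5 in 8505C-PTX, so it was lower in both PTX libraries, by log2 fold changes of -2.97 and -2.91, and by -2.09 in SW1736-PTX against 8505C wt. JUND rose in 8505C, from 23.0 to 92.1 FPKM, and ATF3 and FOS were called higher in SW1736, with log2 fold changes of 2.46 and 1.79, while against 8505C wt ATF3 was called (1.72) and FOS was not (-0.09). In SW1736 FOS passed the FPKM limit through the PTX library alone, so only a higher call was possible. Of the 9 AP-1 genes, 8 were compared in SW1736, with 2 higher and 1 lower beside 15.7% and 10.2% of all genes, and 7 in 8505C, with 1 of each beside 15.0% and 5.89%. At the ends of the complex, the inflammatory genes S100A7, S100A8, S100A9 and S100A12 were listed at 0 in all 4 libraries. Of 17 S100 genes there, 9 passed the FPKM limit for SW1736, with 3 higher and 2 lower, beside 15.7% and 10.2% of all genes. For 8505C the limit also left 9, with 3 higher and 1 lower, beside 15.0% and 5.89%. SW1736-PTX against 8505C wt had 3 higher and none lower of 9, beside 15.1% and 5.23%. The abundant S100A10, S100A11, S100A13 and S100A16 were not called in either line. S100A4, S100A3 and S100A6 were called higher in both lines and in SW1736-PTX against 8505C wt. S100A4 had the largest of these changes for SW1736, from 0.482 to 21.9 FPKM, but the smallest for 8505C, from 2.77 to 8.06. S100A6 had the highest levels, from 477 to 1361 FPKM for SW1736 and from 379 to 1243 for 8505C. S100A2 was called lower in both lines, from 54.1 to 4.04 and from 5.95 to 1.82 FPKM, but not in SW1736-PTX against 8505C wt (-0.55), and S100A1 was called lower in SW1736 (-1.88) but not against 8505C wt (-0.20).

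**Figure D4:**
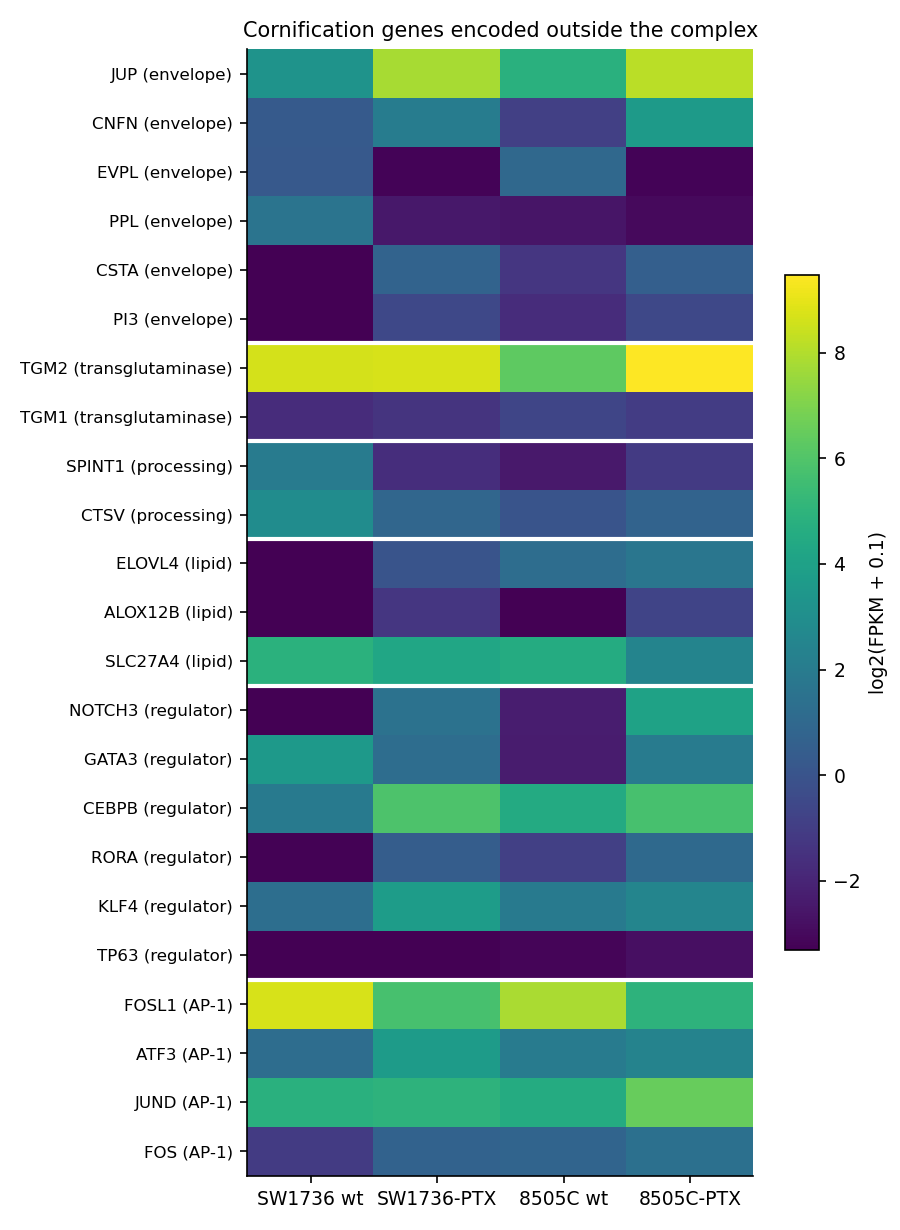
Levels as log2(FPKM + 0.1), from dark (listed at 0) to yellow, of the cornification genes named outside the complex, with 1 column per library and white lines between the lists. JUP is higher and EVPL and FOSL1 are lower in both PTX libraries than in their wt libraries, and TP63 is near 0 in all 4.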

How the data were processed

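The mRNA of 4 cultures (SW1736 wt, SW1736-PTX, 8505C wt and 8505C-PTX) was sequenced with 1 library each, grouped by the sample titles. According to the methods, the authors trimmed single-end reads of 75 bp, aligned them with STAR (hg38) and used StringTie for abundance per gene; bcl2fastq 2.20 is named in the submitters' processing notes, and the annotation is not given in the sources used here. In the deposited tables, each gene has a coverage per base (a signal not scaled to depth), and the FPKM and TPM that the authors computed with StringTie. They hold no counts, so no count model was used.

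Rows of 1 gene name were summed. Aligned bases were read from the highest ratio of coverage to FPKM among genes above 5 FPKM, and divided by 75 to give 48.9 (SW1736 wt), 57.9 (SW1736-PTX), 43.5 (8505C wt) and 53.6 M reads (8505C-PTX). Reads per gene were estimated from the FPKM, this depth and the canonical transcript of GENCODE release 44 on hg38, which was found for all 41 genes. Exact 95% binomial intervals of ratios and floors of 3 reads follow from these estimates and cover counting error only. Calls required an FPKM above 0.5 in at least 1 library and a log2 fold change beyond 1.5, with 0.1 added to each FPKM. The calling step was tested on simulated data with 8-fold changes and counting error only. The changed genes were well above the floor, so the test does not cover calls of genes near it.

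The members and gene lists were chosen with earlier results of these data known. The genes named were the 8 members, genes of the complex, its S100 genes included, above 0.5 FPKM in at least 1 library, up to 6 called genes with the largest change per list outside it, with TP63, KLF4, TGM1 and PPL in any case, the markers of keratinocytes and thyroid cells, and the 5 genes nearest to the most abundant member. TCHH, SMCP, DSP, ANXA1, CEBPA, KLF5, PRDM1, MAF, OVOL2, LCE1C, SPRR2F, FLG-AS1 and genes listed at 0 in all libraries were named after their values were seen. SPRR5 was not analysed here, and some genes of the lists are not reported here. Alternatives changed the pseudocount, FPKM minimum, unit, centring, threshold, handling of repeated names and of genes at 0, and, after the values were seen, the reference library of SW1736-PTX. Promoters were taken from RefSeq (GRCh38.p14) for 36 of the 41 genes. Python 3.11.15, NumPy 2.4.6, pandas 2.3.3, SciPy 1.17.1, Biopython 1.88 and matplotlib 3.10.9 were used.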

Additional observations from a re-analysis of the deposited data

Results flagged for a closer look

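The 3 members LCE2A, KPRP and SPRR2D were called in opposite directions in the 2 lines when each PTX library was compared with its own wt library. The log2 fold change of 8505C minus that of SW1736 was -12.23 for LCE2A, -10.42 for KPRP and -7.14 for SPRR2D. With 1 library per group, the difference between the lines was not tested. It includes the contrast between the wt libraries, which took part in choosing the members. That choice favoured opposite directions, so these values are descriptions. Of the 13304 genes compared in both lines, 57 were called higher in SW1736-PTX and lower in 8505C-PTX. When SW1736-PTX was compared with 8505C wt instead, because its PAX8, FOXE1 and NKX2-1 levels lay near those of 8505C, the log2 fold changes were 0.33 for LCE2A, -1.08 for KPRP and -2.07 for SPRR2D. The opposite directions of these 3 genes therefore rested on SW1736 wt as the reference, and that of SPRR2D also on the pseudocount, since with 1 in place of 0.1 its log2 fold change in SW1736-PTX was 1.42 and was not called.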

How the results depend on the processing

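Of 204 alternatives for the fold change of a single member, 184 moved by less than the counting error of the value reported, which has no upper bound for genes at 0 in 1 library, 20 moved by more and none changed the sign of a called value. The counts of envelope genes called changed more. When both libraries had to exceed 0.5 FPKM, 0 were called higher in SW1736-PTX and in 8505C-PTX against their wt libraries, in 8505C wt against SW1736 wt and in SW1736-PTX against 8505C wt, where 1 was called lower; by construction this drops genes at 0 in 1 library. With a pseudocount of 1, 3 were called higher in SW1736-PTX against SW1736 wt, where LCE6A and SPRR2D (1.42) were lost, and with SPRR2D its call in opposite directions. There were 3 in 8505C wt against SW1736 wt, without SPRR2A and FLG, and 1 higher and 1 lower in SW1736-PTX against 8505C wt. Counting any FPKM above 0 gave 8 higher calls in SW1736-PTX against SW1736 wt and 4 against 8505C wt, by adding genes. With TPM, 5 genes instead of 3 were called lower in 8505C-PTX than in SW1736-PTX, SPRR2D and SPRR2F being added, and 7 instead of 5 higher in SW1736-PTX than in SW1736 wt, FLG and SPRR2F being added; the cause was not tested. SPRR2D was also called lower between the PTX libraries with a pseudocount of 0.01 and with genes at 0 set to 3 reads. A limit of 1 gave 2 higher calls in that comparison, FLG and IVL, and 4 lower calls in SW1736-PTX against 8505C wt, where a limit of 2 gave 1. The fall of LCE2A, KPRP and SPRR2D in 8505C-PTX was called under each alternative. Levels below about 0.1 FPKM rest on 3 or fewer reads for the short genes.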

Other observations

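TCHH, which encodes trichohyalin of the hair follicle, was the envelope gene with the highest level in SW1736 wt. Its level was 0.155 FPKM for SW1736 wt, 0.155 in SW1736-PTX, 0.117 in 8505C wt and 0.0790 in 8505C-PTX, about 53, 63, 36 and 30 reads, so that it did not show the absence from SW1736 wt seen for LCE2A, KPRP and IVL. SMCP, a sperm protein gene that lies between LCE6A and IVL, was listed at 0 in SW1736 wt and was at 0.385, 0.395 and 0.191 FPKM in SW1736-PTX, 8505C wt and 8505C-PTX, from about 17, 13 and 8 reads.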
